A study of Mus musculus with 242 samples.

Results

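Gene expression in the liver after repeated benzene dosing was described from 4 arrays of benzene-treated mice and 4 arrays of vehicle controls, 8 of the 242 arrays in a study of chemicals given to mice. The members were chosen from the labels and not from measured values: every array whose treatment is given as benzene, and the corn oil controls whose titles carry the set name CCO2. All 8 mice were adult females of the hybrid strain B6C3F1, 5 weeks old at the start and 18 weeks old at harvest, and each array carried the liver RNA of a different animal. They were dosed by gavage once per day, 5 days a week, for 13 weeks, the benzene group with 100 mg/kg in 5 ml/kg corn oil and the control group with 5 ml/kg corn oil alone. Pieces of 3 liver lobes were minced together, so each array shows the RNA of all cells in the tissue, and fewer cells of a type cannot be told apart from less RNA per cell. For comparison, groups of mice of the same strain and sex were used that had been gavaged in corn oil for the same time with coumarin (200 mg/kg), 1,2-dibromoethane (62 mg/kg) or 1,4-dichlorobenzene (100 mg/kg), 4 arrays each. The labels do not state which control set belongs to which chemical. CCO2 was the only control set labelled corn oil within the 54 arrays that share its 2 run codes. Benzene replicates 1 to 3 and control replicates 3 and 4 had run code RSTLRI601_1, and benzene replicate 4 and control replicates 1 and 2 had run code RSTLRI000. Replicates were numbered in accession order, so a number names an array and pairs nothing.

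Benzene is a solvent best known for damage to the bone marrow, and the liver carries out the first steps of its metabolism. CYP2E1 oxidises it to benzene oxide, which rearranges to phenol, and phenol is oxidised further to hydroquinone and catechol. Epoxide hydrolase opens the oxide to a dihydrodiol, glutathione transferases start the route to mercapturic acids, and sulfotransferases and UDP-glucuronosyltransferases conjugate the phenols. Quinones formed from these products are reduced by NQO1, whose gene is a standard target of the oxidant sensor NRF2.

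Levels are given as log2 of the array signal plus a pseudocount of 17.3, and a difference is the mean with benzene minus the mean with corn oil on that scale, as limma estimated it with the run code as a block. The scale understates the fold of dim genes. RNA integrity numbers were 6.2 to 7.4 in the benzene group and 6.6 to 7.1 in the controls. The log2 ratio of the Gapdh 3 prime to 5 prime control probe sets was -0.35 to 0.03 with benzene and -0.30 to 0.08 in the controls. The tissue was checked against 16 measured genes listed as hepatocyte markers, of which 0 reached an unadjusted p under 0.05 (3.77% of all genes did). They include Trh, a different gene matched by name in place of transferrin (Trf). Albumin, the main plasma protein made by hepatocytes, stood at 15.64 ± 0.22 (SD, n = 4) with benzene and 15.74 ± 0.30 (SD, n = 4) in the controls. Benzene replicates 1 and 2 stood apart from the other 6 arrays, with far higher signals for several acute phase and neutrophil genes and lower signals for PPARalpha target genes. Replicate 1 also had the lowest median correlation with the other arrays of the 54 (0.919, in a range of 0.919 to 0.955). Their RNA integrity numbers were 6.2 and 6.9 and their Gapdh ratios 0.03 and -0.00, against 7.4 and 7.2 and -0.18 and -0.35 in replicates 3 and 4. The part of RNA quality in what sets these arrays apart was not tested. Values without them are given beside the results that they moved most.

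The comparison asks which liver genes differ after 13 weeks of benzene. No probe set met the criterion for a change, a Benjamini-Hochberg adjusted p under 0.05 in limma together with a fold of at least 1.5 (0 of 45037, 0%). At an unadjusted p under 0.05 there were 1797 probe sets (3.99%), 627 higher (1.39%) and 1170 lower (2.6%). The split of higher and lower depended on the scaling of the arrays, since quantile normalization gave 868 higher and 899 lower. The lowest adjusted p was 0.0549, for a probe set without a gene name, 1443270_at. It read 4.36, 4.22, 4.33 and 4.52 with benzene and 6.67, 6.73, 5.76 and 5.94 in the controls, so the groups did not overlap. Its difference of -1.89 lies at a level near the pseudocount.

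Taking for each of 18193 genes the probe set with the highest mean, 686 genes (3.77%) had an unadjusted p under 0.05, 266 higher (1.46%) and 420 lower (2.31%). The median gene differed by -0.03. All 4 benzene arrays lay above all 4 control arrays for 70 genes (0.385%) and below them for 185 genes (1.02%). Against the distilled water gavage controls WCO1 of the same run, benzene had 0 probe sets called (0%) and 2149 (4.77%) at that p, and corn oil had 0 (0%) and 1565 (3.47%). Without benzene replicates 1 and 2, 0 probe sets were called and 586 genes (3.22%) had an unadjusted p under 0.05, 193 higher (1.06%) and 393 lower (2.16%). The lowest adjusted p of any of the genes was 0.452, so the differences of single genes below are measured values and not calls.

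The fit set limits on the size of difference that remained possible. Its spread was estimated over the 54 arrays and not over the 8 alone. The 95% confidence interval of the difference lay within a 2-fold change in either direction for 11164 genes (61.4%). Among the 9350 genes whose mean was above the median gene in either group it did so for 8104 (86.7%). The median half-width of the interval was a 1.57-fold change over all genes and a 1.39-fold change over those 9350. With limma fitted to the 8 arrays alone, the interval lay within 2-fold for 10192 genes. The lowest adjusted p of any probe set in that limma fit was 0.986.

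**Figure D1:**
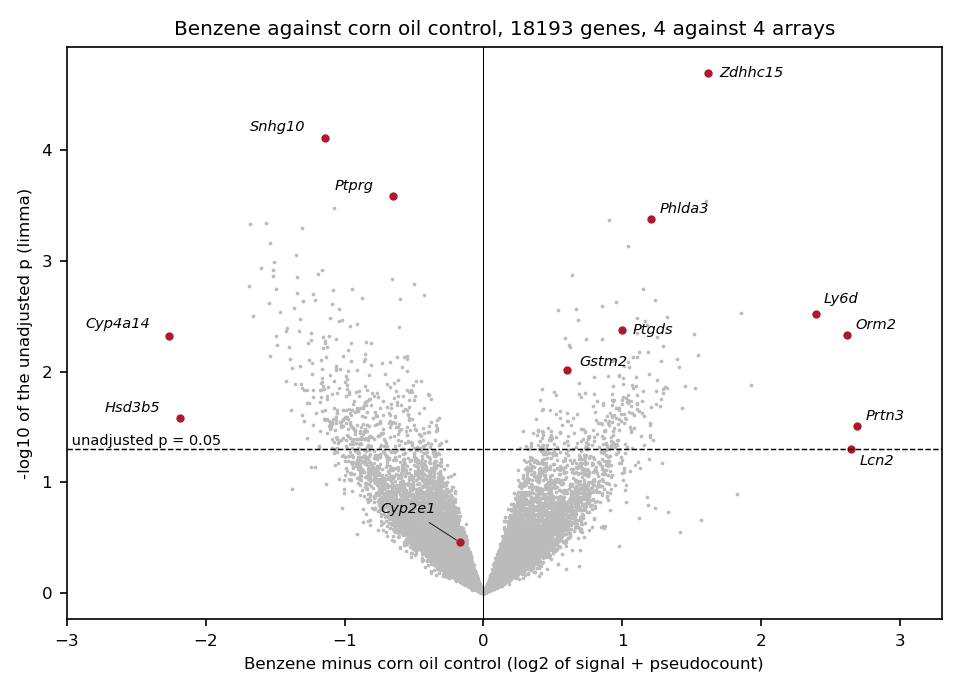
Difference between benzene and corn oil control (x axis, log2 of signal plus pseudocount) against -log10 of the unadjusted limma p (y axis) for 18193 genes, each point 1 gene and 4 arrays per group. Red points are genes named in the text, the dashed line marks an unadjusted p of 0.05, and 686 genes lie above that line although no gene passed after adjustment.

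Of the enzymes that oxidise benzene and handle its first products, 29 of 31 listed genes were measured, and 23 of the 29 had an interval within 2-fold. Only Ephx1 among them had an unadjusted p under 0.05 (1 of 29, where 3.77% of all genes had), so the count is not read as a result of the list. Their median difference was -0.03, the same as that of all genes. Cyp2e1, the main benzene-oxidising cytochrome P450, read 15.77, 15.37, 15.61 and 15.51 with benzene and 15.75, 15.93, 15.35 and 15.83 in the controls. The ranges overlapped, and the difference of -0.17 had an interval of -0.53 to 0.19. That whole interval lay within a 1.5-fold change in either direction. Cyp2f2, another P450 that takes small aromatic substrates, differed by 0.01 with an interval of -0.35 to 0.37.

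Ephx1, the microsomal epoxide hydrolase, read 14.39, 13.38, 14.05 and 13.98 with benzene and 13.08, 13.43, 14.29 and 13.27 in the controls. Benzene arrays were mostly higher, but control replicate 3 exceeded 3 of them. The difference was 0.41 ± 0.19 (SE; limma, unadjusted p = 0.0421). Nqo1, the quinone reductase, read 9.11, 8.99, 8.93 and 9.10 against 9.44, 9.22, 9.03 and 8.89, and differed by -0.03 with an interval of -0.52 to 0.47. The fatty aldehyde dehydrogenase Aldh3a2 had the largest difference downward of these enzymes, -0.57, and stood at 10.44 and 11.46 in benzene replicates 1 and 2 against 11.89 to 12.42 in the controls. Without those 2 arrays it differed by 0.14.

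**Figure D2:**
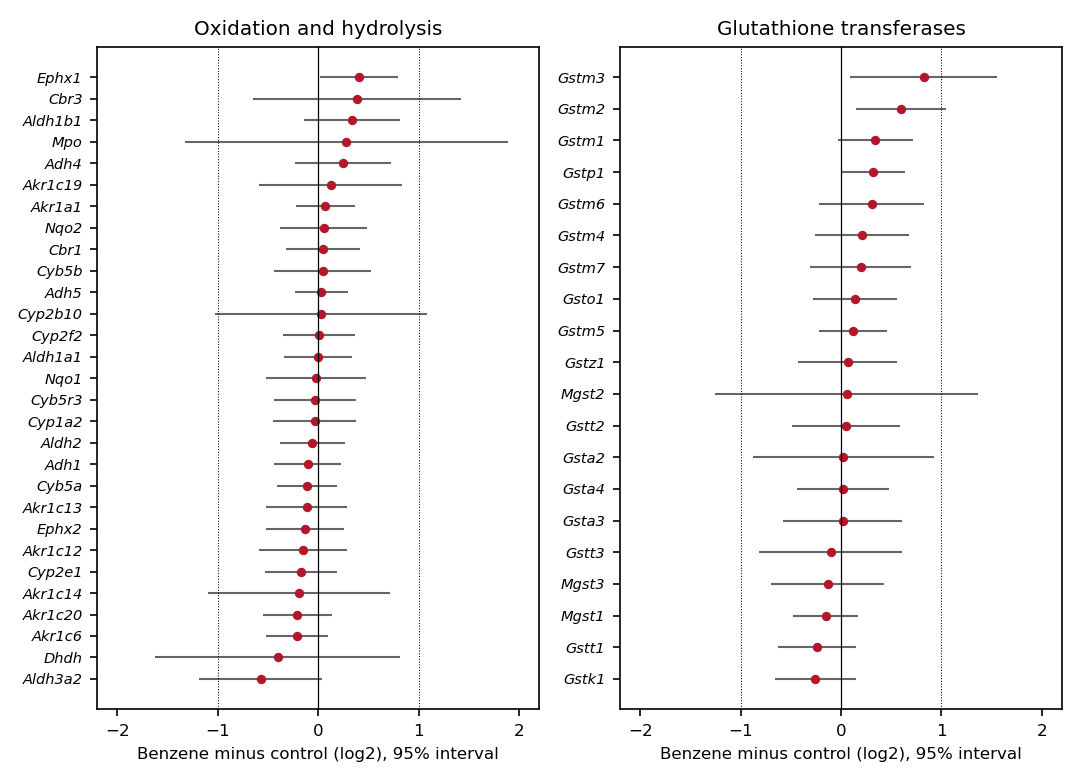
Difference between benzene and corn oil control (x axis, log2) with its 95% limma confidence interval for the 29 measured genes of benzene oxidation and hydrolysis (left) and 20 glutathione transferase genes (right), 4 arrays per group. Dotted lines mark a 2-fold change; Cyp2e1 lies at -0.17, and the intervals of Ephx1, Gstm2, Gstm3 and Gstp1 lie above 0.

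Conjugation with sulfate and glucuronic acid showed no member at an unadjusted p under 0.05 among 21 measured genes of 30, with a median difference of -0.11. Over all genes 3.77% were at that p, so a list of this size says little by an empty count. Most genes of the Ugt1a locus, which makes the phenol-conjugating enzymes, had no probe set with a gene name of its own and were not analysed here. Sult1a1, a sulfotransferase of phenols, read 13.41, 14.08, 14.65 and 14.52 with benzene and 14.33, 14.49, 13.83 and 14.69 in the controls. Replicate 1 alone lay below all controls, and the difference of -0.20 became 0.25 without replicates 1 and 2. Sult1c2, another cytosolic sulfotransferase, read 6.67, 7.77, 8.94 and 8.79 with benzene against 8.03 to 9.37, and its difference of -0.76 became 0.13 without those arrays.

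Among 34 measured genes of the glutathione and mercapturate route, 3 had an unadjusted p under 0.05 and all 3 were mu or pi class transferases with higher values (3 of 34, where 1.46% of all genes were higher at that p). The median difference of the list was 0.09, and the count was 5 without benzene replicates 1 and 2. Gstm2 read 11.83, 11.91, 12.39 and 11.74 with benzene and 10.61, 11.49, 11.59 and 11.69 in the controls. The groups did not overlap, although the lowest benzene array lay just above the highest control. The difference was 0.60 ± 0.22 (SE; limma, unadjusted p = 0.00964).

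Gstm3 read 12.89, 12.73, 13.29 and 12.41 with benzene and 10.85, 12.14, 11.57 and 13.01 in the controls. Control replicate 4 lay within the benzene range, and the difference was 0.82 ± 0.36 (SE). Gstp1, the pi class enzyme, read 15.81, 15.34, 15.22 and 15.04 against 14.88, 15.06, 15.11 and 14.88, a difference of 0.32 that was 0.15 without replicates 1 and 2. Gstm1 differed by 0.34, and its 4 probe sets ranged from 0.25 to 0.76. The mu class genes are close paralogs, so their probe sets may share targets. Gstt1, the theta class enzyme, read 14.09, 13.56, 14.04 and 13.82 against 14.06, 14.04, 14.01 and 14.20 and differed by -0.24, or by -0.15 without those arrays.

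These transferases are also NRF2 targets. Of 27 measured NRF2 target genes, 5 were higher at an unadjusted p under 0.05 (Gstm2, Gstm3, Gstp1, Ephx1 and the efflux pump Abcc4), where 1.46% of all genes were, and none was lower. The median difference was 0.12. The count was 7 of 27 without benzene replicates 1 and 2, where 1.06% of all genes were higher at that p. Nqo1 at -0.03 and Gclc, the catalytic subunit of glutathione synthesis, at -0.46 (0.01 without those 2 arrays) were not among them. None passed the adjusted test. Within run code RSTLRI601_1 alone, 3 benzene against 2 control arrays, Gstm2 differed by 0.41, Gstm3 by 0.68, Gstp1 by 0.46 and Ephx1 by 0.16. The unadjusted limma p there was 0.089 for Gstm2, 0.18 for Gstm3, 0.029 for Gstp1 and 0.53 for Ephx1.

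Targets of other receptors of foreign compounds gave 1 lower gene per list at an unadjusted p under 0.05, where 2.31% of all genes were lower. A single gene is not read as a change of its list. The CAR and PXR list, which holds the drug-inducible P450 genes, had 1 of 22 measured genes at an unadjusted p under 0.05, Cyp2c37 at -0.64 (-0.20 without replicates 1 and 2), and a median of -0.25 that was 0.09 without them. Cyp2b10, the classic CAR target, read 11.30, 11.03, 11.45 and 11.78 with benzene and 12.14, 11.11, 10.91 and 11.44 in the controls, a difference of 0.03 with a wide interval of -1.03 to 1.08. Of 7 aryl hydrocarbon receptor targets, Cyp1b1 was at -1.29 and read 4.53 to 5.10 with benzene, close to the pseudocount. Cyp1a1 read 6.96, 6.55, 6.22 and 7.09 against 7.20, 7.25, 6.87 and 6.34 and differed by -0.13.

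Genes that p53 switches on after DNA damage held the lowest unadjusted p among the brighter genes that were higher, that of Phlda3. Phlda3, a p53 target that restrains AKT signalling, read 9.32, 8.46, 8.23 and 8.28 with benzene and 6.93, 7.25, 8.15 and 7.35 in the controls. All benzene arrays lay above all controls, with control replicate 3 just below the lowest of them. The difference was 1.21 ± 0.32 (SE), or 2.31-fold, with an unadjusted p of 0.00042 in limma. It was 0.83 without benzene replicates 1 and 2 and 0.92 within run code RSTLRI601_1. Over 20 alternative settings it ranged from 0.83 to 1.51, and the lowest adjusted p was 0.201.

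Phlda3 was not accompanied by the whole list. Of 28 measured p53 targets, 3 were higher at an unadjusted p under 0.05 (Phlda3, Btg2 and Ccng1), where 1.46% of all genes were, none was lower, and the median was 0.15. Without benzene replicates 1 and 2 the counts were 1 higher, Phlda3, and 1 lower. Ccng1, the cyclin G1 gene, read 10.88, 10.35, 10.32 and 10.48 with benzene and 10.44, 9.97, 10.50 and 9.72 in the controls, a difference of 0.35 ± 0.16 (SE) that was 0.24 without those arrays. The other Ccng1 probe sets gave 0.41 and 0.32 (limma, unadjusted p = 0.15 and 0.43). Cdkn1a, which encodes the cell cycle inhibitor p21, read 10.90, 10.56, 9.81 and 9.54 against 11.21, 9.54, 9.13 and 8.44. The control range contained all benzene arrays, and the difference was 0.56 ± 0.73 (SE), or 0.10 without replicates 1 and 2. Mdm2, the ubiquitin ligase that degrades p53, read 7.33, 8.32, 8.72 and 9.15 against 8.83, 9.47, 8.15 and 8.57, a difference of -0.40 that was 0.18 without them. Btg2, an antiproliferative early gene, read 11.88, 10.69, 10.47 and 9.64 against 10.12, 9.59, 9.85 and 9.74, and its difference of 0.87 was 0.23 without replicates 1 and 2. The other Btg2 probe set gave 0.40 (limma, unadjusted p = 0.28). Of 23 DNA repair genes, none had an unadjusted p under 0.05 (median 0.03), where 3.77% of all genes had.

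Cell cycle genes were higher in 22 of 26 cases (45.6% of all genes were higher). At an unadjusted p under 0.05, 2 of them were higher (1.46% of all genes were) and none was lower. The median was 0.19, and 0.47 without benzene replicates 1 and 2. Taken as each array's deviation from the control mean, the list mean was 0.04, 0.11, 0.74 and 0.31 in benzene replicates 1 to 4. The controls ran from -0.13 to 0.12, so replicates 1 and 2 lay within their range. Birc5, the mitotic protein survivin, read 6.36, 6.37, 7.91 and 6.31 with benzene and 4.95, 5.62, 5.72 and 4.88 in the controls, a difference of 1.43. Cdc20, an activator of the anaphase-promoting complex, read 7.71, 7.29, 9.20 and 7.41 against 7.30, 6.16, 7.03 and 6.98, a difference of 1.07. Benzene replicate 3 was the highest array for both.

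Ranked by unadjusted p among genes above the median gene, and as a ranking only, the 10 higher genes were Phlda3, Rogdi, Hps5, Alg2, Cptp, Orm3, Ly6d, Ptgds, Orm2 and Psme1. The arrays of the groups did not overlap for Phlda3, Rogdi and Cptp. Rogdi differed by 0.64, Cptp, a ceramide-1-phosphate carrier, by 0.54 (0.33 without replicates 1 and 2), Hps5, a subunit of a lysosome biogenesis complex, by 0.85, and Alg2, a mannosyltransferase of glycan assembly, by 0.66. Ptgds, a prostaglandin D2 synthase, read 11.27, 10.87, 11.52 and 10.68 with benzene and 9.55, 9.58, 10.95 and 9.83 in the controls. Its difference of 1.00 ± 0.33 (SE) was 1.12 without replicates 1 and 2 and 0.95 in its other probe set. Ly6d, a lymphoid surface protein, differed by 2.39 (1.29 without replicates 1 and 2) and read 9.21 and 8.82 in replicates 1 and 2, 6.81 and 7.01 in replicates 3 and 4, and 4.73 to 7.43 in the controls. Psme1, a proteasome activator subunit, differed by 0.59, and by 0.26 without replicates 1 and 2.

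The 10 lower genes were Snhg10, Ptprg, Ccdc9, Nsfl1c, 6330415G19Rik, Hoxa5, Kcmf1, Gimap6, Asic5 and Gtpbp6. Snhg10, a host gene of small nucleolar RNA, read 6.82, 6.85, 6.59 and 6.50 with benzene and 7.91, 8.66, 7.66 and 7.36 in the controls. The groups did not overlap, and the difference was -1.14 ± 0.26 (SE; limma, unadjusted p = 7.7e-05). It was -1.35 without replicates 1 and 2 and -0.76 within run code RSTLRI601_1. Ptprg, a receptor tyrosine phosphatase, differed by -0.65 without overlap, but its 3 other probe sets gave -0.48, -0.10 and 0.07. Gimap6, a GTPase of lymphocytes, differed by -0.60 and Kcmf1, a ubiquitin ligase, by -0.43 (-0.28 without replicates 1 and 2), both without overlap. Hoxa5 (-1.34) and Asic5 (-1.36) were low mainly in replicates 1 and 2, and without those arrays they differed by -0.22 and -0.16.

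Among the brighter genes whose arrays did not overlap, the largest differences upward, after Phlda3, were those of Zfp9 (1.09), Slc5a6 (0.75, and 0.49 without replicates 1 and 2), Rogdi, Gstm2, Slc44a2 (0.59, and 0.31 without them), Cptp and Nop14 (0.53). The largest downward were those of Snhg10, 6330415G19Rik (-0.95), Mir1931 (-0.85, and -0.56 without them), Amer1 (-0.85), Gm19710 (-0.82), Ptprg, Dnajb14 (-0.64) and Nmnat3 (-0.63). Slc5a6 is the vitamin transporter for biotin and pantothenate, and Nmnat3 makes NAD in mitochondria. Over all genes the lowest p belonged to the dim gene Zdhhc15, named after its values were seen, which read 6.25, 6.26, 6.01 and 7.31 with benzene and 4.73, 4.75, 5.78 and 4.62 in the controls. Its difference was 1.62 ± 0.34 (SE), and it was called when control replicate 3 was left out (2.01; limma, adjusted p = 0.0252, in a range of 0.0252 to 1 over 19 alternatives).

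The largest differences of all came from benzene replicates 1 and 2. Acute phase proteins are made by hepatocytes in quantity when interleukin-6 and interleukin-1 signal inflammation, largely through the transcription factors STAT3, C/EBP and NF-kB. Of 24 measured acute phase genes, 7 were higher at an unadjusted p under 0.05 (Saa3, Orm2, Orm3, Lcn2, Serpina3n, Socs3 and Cxcl1), where 1.46% of all genes were, and the median was 0.35. Without the 2 arrays the counts were 0 higher and 0 lower, with a median of -0.08. The genes Lcn2, Saa2, Saa3, Cxcl1, Serpina3n and Socs3 are named here after their values were seen.

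The 250 bases before the RefSeq transcript start (build GRCm38.p6) are shown for 4 acute phase genes for which those arrays lay above the other 6, chosen after their values and sequences were seen, 5 prime to 3 prime on the gene's strand. Capitals mark matches to a C/EBP-type motif, TTGCNNAA, or to an NF-kB-type motif, GGAATTTCC, on either strand. The regions are chr4:63362199-63362448 (plus strand) for Orm2, chr2:32387740-32387989 (minus strand) for Lcn2, chr7:46751583-46751832 (plus strand) for Saa2 and chr5:90890995-90891244 (plus strand) for Cxcl1.
Orm2: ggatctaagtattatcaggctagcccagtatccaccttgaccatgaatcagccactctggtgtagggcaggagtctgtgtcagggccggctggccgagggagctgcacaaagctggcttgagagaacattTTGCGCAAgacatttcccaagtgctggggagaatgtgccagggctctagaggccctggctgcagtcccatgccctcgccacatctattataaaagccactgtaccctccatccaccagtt
Lcn2: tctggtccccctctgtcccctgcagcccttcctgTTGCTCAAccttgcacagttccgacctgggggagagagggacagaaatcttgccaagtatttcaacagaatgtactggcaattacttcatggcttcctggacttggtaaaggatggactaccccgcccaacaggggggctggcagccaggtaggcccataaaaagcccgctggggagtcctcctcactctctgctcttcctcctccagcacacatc
Saa2: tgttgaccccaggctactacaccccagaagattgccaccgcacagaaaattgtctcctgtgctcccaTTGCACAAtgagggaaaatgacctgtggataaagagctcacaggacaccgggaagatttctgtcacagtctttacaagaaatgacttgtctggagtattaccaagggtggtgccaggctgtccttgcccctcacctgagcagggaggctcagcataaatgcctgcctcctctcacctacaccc
Cxcl1: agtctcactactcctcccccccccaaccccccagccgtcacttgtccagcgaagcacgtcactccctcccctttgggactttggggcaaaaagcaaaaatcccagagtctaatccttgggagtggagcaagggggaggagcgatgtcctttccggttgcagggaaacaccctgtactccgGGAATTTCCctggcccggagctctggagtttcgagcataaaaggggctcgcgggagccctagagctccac
The C/EBP-type match began 120 bases before the start in Orm2, 216 in Lcn2 and 183 in Saa2, and the NF-kB-type match began 70 bases before it in Cxcl1. Of 32851 promoters of this length, 9.56% held the first motif and 0.286% the second. A STAT-type motif, TTCNNNGAA, in 7.02% of promoters, was found in none of these 4 and in the promoter of Socs3. None of the 3 motifs was found in the corresponding window of Phlda3, chr1:135765835-135766084 on the plus strand. The matches describe letters only, and binding was not measured.

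Orm2, an orosomucoid of plasma, read 14.28, 15.15, 9.78 and 10.03 with benzene and 9.67, 9.95, 10.36 and 8.80 in the controls. Replicates 1 and 2 were far above every control, and replicates 3 and 4 lay within the control range. The difference of 2.62 ± 0.88 (SE) was 0.21 without those 2 arrays. Orm3 read 11.75, 12.50, 8.81 and 8.59 against 8.72, 8.28, 8.87 and 8.53, a difference of 1.85 that was 0.10 without them. Lcn2, which binds bacterial iron carriers, read 15.04, 15.21, 8.33 and 8.36 against 9.50, 9.82, 9.81 and 7.39, and its difference of 2.65 became -0.79.

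The serum amyloid A gene Saa2 read 15.57, 15.26, 8.84 and 8.81 with benzene and 10.19, 11.29, 12.25 and 8.93 in the controls, so that replicates 3 and 4 lay below every control. Saa3 read 11.97, 13.95, 8.76 and 8.66 against 9.76, 9.10, 9.43 and 8.90. Cxcl1, a chemokine that attracts neutrophils, read 13.93, 12.81, 10.71 and 9.38 against 9.70, 9.33, 9.80 and 9.91, so that replicate 3 also lay above the controls. Its difference of 1.93 was 0.36 without replicates 1 and 2. Socs3, the feedback inhibitor of STAT3 signalling, read 11.75, 10.82, 8.79 and 9.98 against 9.29, 9.74, 9.84 and 8.95. Serpina3n read 13.60, 13.43, 12.38 and 12.38 against 12.20 to 12.58. All of them shared the order of Orm2, with replicates 1 and 2 above all 4 controls.

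Genes of fatty acid oxidation under PPARalpha showed the opposite order. Of 23 measured PPARalpha targets, 20 were lower (54.4% of all genes were lower) and 2 were lower at an unadjusted p under 0.05 (2.31% of all genes), with a median of -0.25. Without replicates 1 and 2 there was none and the median was 0.14. Cyp4a14, a fatty acid omega-hydroxylase, read 10.57, 8.73, 13.59 and 14.59 with benzene and 13.38, 14.52, 14.45 and 14.10 in the controls, a difference of -2.26 that was -0.03 without the 2 arrays. Ehhadh, an enzyme of peroxisomal beta-oxidation, read 12.29, 12.43, 13.78 and 14.11 against 13.76 to 13.89. Acot1, an acyl-CoA thioesterase named after its values were seen, read 9.03, 9.41, 11.63 and 12.35 against 11.13 to 12.96.

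**Figure D3:**
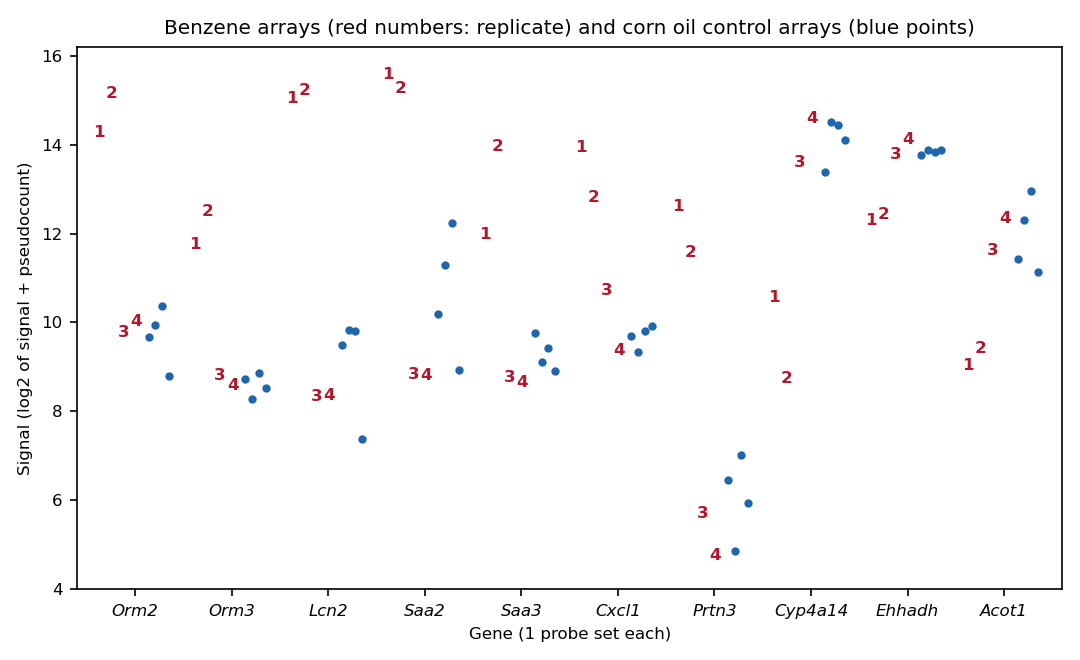
Level (y axis, log2 of signal plus pseudocount) of 10 genes (x axis) on each array, with benzene arrays as red replicate numbers and the 4 corn oil control arrays as blue points. Benzene replicates 1 and 2 lie above all controls for Orm2, Orm3, Lcn2, Saa2, Saa3, Cxcl1 and Prtn3 and below all controls for Cyp4a14, Ehhadh and Acot1, while replicates 3 and 4 lie elsewhere.

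Some markers of neutrophils and other myeloid cells were high on the same 2 arrays. Of 12 measured, 9 were higher and 3 lower with benzene (45.6% of all genes were higher). Only Prtn3 was higher at an unadjusted p under 0.05 (1 of 12, where 1.46% of all genes were). Of 19 Kupffer cell and macrophage markers, 0 were. The mean of 12 measured neutrophil and myeloid markers, taken as each array's deviation from the control mean, was 1.60 and 2.21 in replicates 1 and 2, -0.65 and -0.51 in replicates 3 and 4, and -0.29 to 0.43 in the controls. Their summed signal, which is weighted to the brightest markers, ran from 505 to 15280 with benzene and from 708 to 1695 in the controls. Prtn3, the granule protease proteinase 3, read 12.61, 11.57, 5.69 and 4.75 against 4.85 to 7.01. S100a8, a calcium-binding protein abundant in neutrophils and named after its values were seen, read 11.39, 12.76, 6.42 and 6.03 against 6.65 to 8.999. The mean deviation of 19 Kupffer cell and macrophage markers was 0.63 and 1.29 in replicates 1 and 2 and -0.11 and -0.48 in replicates 3 and 4, against -0.39 to 0.54 in the controls, so replicate 1 lay just above the highest control. The markers had summed signals of 18110 to 75470 against 20390 to 43380. The part of these cells in the acute phase and PPARalpha differences was not tested.

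Many of the genes with the largest spread within the group followed the same pair of arrays. Of the 9350 brighter genes, 314 had an SD above 1 among the benzene arrays and 113 among the corn oil controls. Among the 13 groups of the 54 arrays, this count was higher than that of benzene only with 1,2-dibromoethane (671), and the lowest was 33. Of the 100 genes with the largest SD among the benzene arrays, replicates 1 and 2 were both above the other 6 arrays in 31 and both below them in 25. The stress protein Mt2, a metallothionein named after its values were seen, was such a gene at 14.95 and 14.37 in these arrays, 11.54 and 10.28 in replicates 3 and 4, and 11.32 to 12.09 in the controls. The rest were mixed, and some were low in replicate 1 alone. Rnaseh2b, also named after its values were seen, read 4.81, 8.01, 8.24 and 7.93 with benzene and 7.61 to 8.63 in the controls. The 100 genes were picked by the spread of these same arrays. No such count was made over all genes, so the counts describe these genes only.

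High Orm2 with low Cyp4a14 was not limited to benzene, and high Orm2 did not always come with low Cyp4a14. Among the 54 arrays, 7 had an Orm2 level above 13 and 4 of them a level above 14, bounds set after the values were seen. The 4 were benzene replicates 2 and 1, replicate 2 of the control set CCO3 at 14.39, and replicate 3 of 1,2-dibromoethane at 14.00. CCO3 is labelled distilled water. Cyp4a14 stood at 8.73, 10.57, 10.80 and 11.61 on these 4 arrays in order of Orm2 with benzene first, and at a median of 14.44 over those of the 54 arrays that were not benzene. All 4 had run code RSTLRI601_1, which 39 of the 54 arrays share. The 3 arrays between the bounds were malathion replicates 4 and 1 (Orm2 at 13.36 and 13.25) and 2-chloromethylpyridine hydrochloride replicate 1 (13.23), with Cyp4a14 at 14.43, 14.46 and 12.99. Malathion replicate 4 and the 2-chloromethylpyridine hydrochloride array had run code RSTLRI000. Coumarin replicate 3 fell below the bounds with Orm2 at 12.63, but had Lcn2 at 13.66, Cxcl1 at 13.03, Prtn3 at 11.48 and Cyp4a14 at 14.10. Prtn3 stood at 10.74 on the CCO3 array and 11.84 on the 1,2-dibromoethane array. On the malathion and 2-chloromethylpyridine hydrochloride arrays between the bounds it stood at 6.13 to 7.59.

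**Figure D4:**
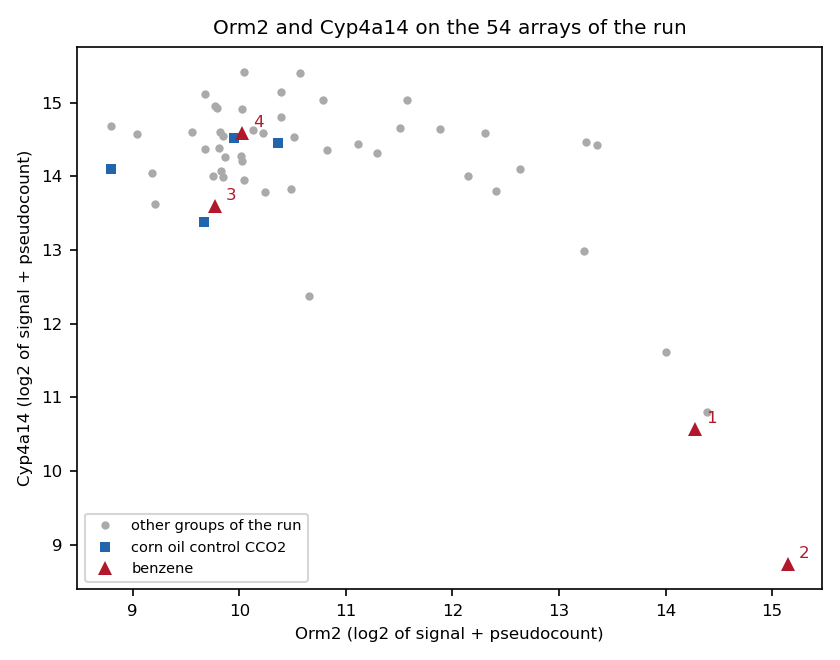
Level of Orm2 (x axis) against Cyp4a14 (y axis), both log2 of signal plus pseudocount, on 54 arrays, with benzene arrays as red triangles numbered by replicate, corn oil controls CCO2 as blue squares and other groups as grey points. Benzene replicates 1 and 2 lie at the lower right with 2 grey arrays, and replicates 3 and 4 lie among the controls.

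For other gene groups the counts of members below an unadjusted p of 0.05 are set beside the 3.77% of all genes at that p. They were 0 of 25 for heme and iron handling, 0 of 22 for interferon response, 0 of 30 for heat, ER and metal stress, 0 of 18 for the circadian clock, 0 of 18 for fatty acid synthesis and 0 of 20 for cholesterol synthesis, where 17 genes were higher (45.6% of all genes). The heme and iron list also counts Trh in place of Trf. Of 20 bile acid genes, Slc51b, a subunit of a bile acid exporter, was lower (-1.09). Hao2, a female-biased hydroxyacid oxidase, read 8.61, 9.15, 12.45 and 11.09 with benzene against 10.94 to 12.53, and its difference of -1.18 became 0.30 without replicates 1 and 2. Hsd3b5, a male-biased steroid dehydrogenase, differed by -2.19, and by -0.97 without them. Pericentral genes (0 of 14) and periportal genes (0 of 13), which mark the zones of the liver lobule, were likewise without members at that p.

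Markers of other cells were counted at an unadjusted p under 0.05, where 3.77% of all genes were (2.31% lower). The counts were 0 of 9 for erythroid cells, 1 of 12 for B lymphocytes, 1 of 16 for T and NK cells, 1 of 17 for endothelium, 0 of 16 for stellate cells and 0 of 7 for bile duct. Each single gene was lower and is not read as a change of its list. In either size, 7 of 12 B lymphocyte, 9 of 16 T and NK and 7 of 17 endothelial markers were higher (45.6% of all genes). Vpreb3, a protein of developing B cells, read 6.42, 5.63, 6.22 and 5.55 with benzene and 7.65, 7.55, 7.51 and 6.68 in the controls, a difference of -1.29 ± 0.51 (SE) without overlap. Klrd1, an NK cell receptor, differed by -0.97 ± 0.36 (SE) and read 5.26 to 6.31 against 6.20 to 7.47. The endothelial ligand Bmp2 differed by -0.52. The median of the B lymphocyte list was 0.21 and that of the T and NK list 0.02.

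1,4-Dichlorobenzene differs from benzene by chlorine atoms at opposite positions of the ring, and a group at the same dose, 100 mg/kg, by the same route for the same time, allowed a matched comparison of this 1 pair. Its arrays had another run code, RSTLRI000_2, which also holds the corn oil sets CCO5 and CCO6. The labels do not assign either set to 1,4-dichlorobenzene, and CCO5 (5 arrays) was chosen as its control. CCO6 was not tried as a control. Since the run codes differ, the effect of each chemical against the set used as its control was compared. None of 45037 probe sets had effects that differed by the call criterion in limma (0%), 2702 had an unadjusted p under 0.05 (6%), and the lowest adjusted p was 0.34. The count was 1 without 1,4-dichlorobenzene replicate 4. The interval of the difference between effects lay within 2-fold for 7510 genes (41.3%), so differences above 2-fold were not bounded for the others. For Cyp2e1 the effects were -0.17 with benzene and -0.01 with 1,4-dichlorobenzene, and the interval of the difference was -0.28 to 0.61. For Gstm3 they were 0.82 and 0.51, with an interval of -1.17 to 0.55, and for Cyp2b10 0.03 and 0.63, with an interval of -0.53 to 1.75. Phlda3 had effects of 1.21 and 0.03, and the difference of -1.17 had an interval of -1.88 to -0.47 but an adjusted p of 0.443 in limma. Ptgds had effects of 1.00 and -0.07, with an adjusted p of 0.552 in limma for the difference.

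Coumarin (200 mg/kg) and 1,2-dibromoethane (62 mg/kg) were given by the same route in corn oil and hybridised within the same 54 arrays, 4 arrays each. Their doses differ from that of benzene, so the direct contrasts compare groups as dosed. Both share the benzene arrays, and both groups share the CCO2 controls with benzene. The corn oil set used as control was CCO5 for 1,4-dichlorobenzene and CCO2 for the others. Against these sets, 64 probe sets were called for coumarin (0.142%), 11 for 1,2-dibromoethane (0.0244%), 10 for 1,4-dichlorobenzene (0.0222%) and 0 for benzene. Directly against benzene, coumarin differed in 52 probe sets (0.115%), 34 higher (0.0755%) and 18 lower (0.04%) than with benzene. The count was 9 without benzene replicates 1 and 2, and 0 when limma was fitted to the 2 groups alone, where 2230 probe sets still had an unadjusted p under 0.05. It was 20 without coumarin replicate 1 or benzene replicate 2, 24 without benzene replicate 1, 26 without coumarin replicate 3, 32 without benzene replicate 3 and 34 without coumarin replicate 2.

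For Ptgds the difference, coumarin minus benzene, was -2.23 ± 0.33 (SE; limma, adjusted p = 0.000196), with coumarin arrays at 8.13 to 9.79 and benzene arrays at 10.68 to 11.52. Against corn oil, Ptgds differed by -1.23 with coumarin and by 1.00 with benzene, and neither passed alone. For Phlda3 the difference was -1.43 ± 0.32 (SE; limma, adjusted p = 0.0415), with coumarin arrays at 6.78 to 7.96 against 8.23 to 9.32 with benzene. Over 17 alternatives, Ptgds passed in 16 and Phlda3 in 7. Gstm3 was higher with coumarin by 2.35 in its probe set with the lowest p (limma, adjusted p = 0.00382).

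Other genes that differed from benzene with coumarin included sex-biased P450 genes. Cyp4a12a, which is higher in males, differed by 4.81, and Cyp3a44, which is higher in females, by -3.18. The peroxisomal oxidase gene Acox2 differed by 0.91 and the cyclin D1 gene Ccnd1 by -1.94. Benzene itself differed from corn oil by -1.003 for Cyp4a12a, 0.26 for Cyp3a44, -0.16 for Acox2 and -0.15 for Ccnd1, none of them called.

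With 1,2-dibromoethane, 3 probe sets differed from benzene (0.00666%). The differences were -2.45 for Cyp3a44 (limma, adjusted p = 0.0295), -1.64 for Rufy3 and 2.79 for the unnamed probe set 1421041_s_at. The count was 0 without benzene replicate 1, without benzene replicate 2 and without both. Phlda3 levels with 1,2-dibromoethane, 8.46 to 10.22, overlapped those with benzene, and Ptgds levels, 11.76 to 13.62, lay above them. In the levels of Phlda3 over the 13 groups of the run, benzene at a mean of 8.57 came after malathion at 9.68 and 1,2-dibromoethane at 9.03. The malathion range of 9.25 to 10.01 still overlapped that of benzene.

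**Figure D5:**
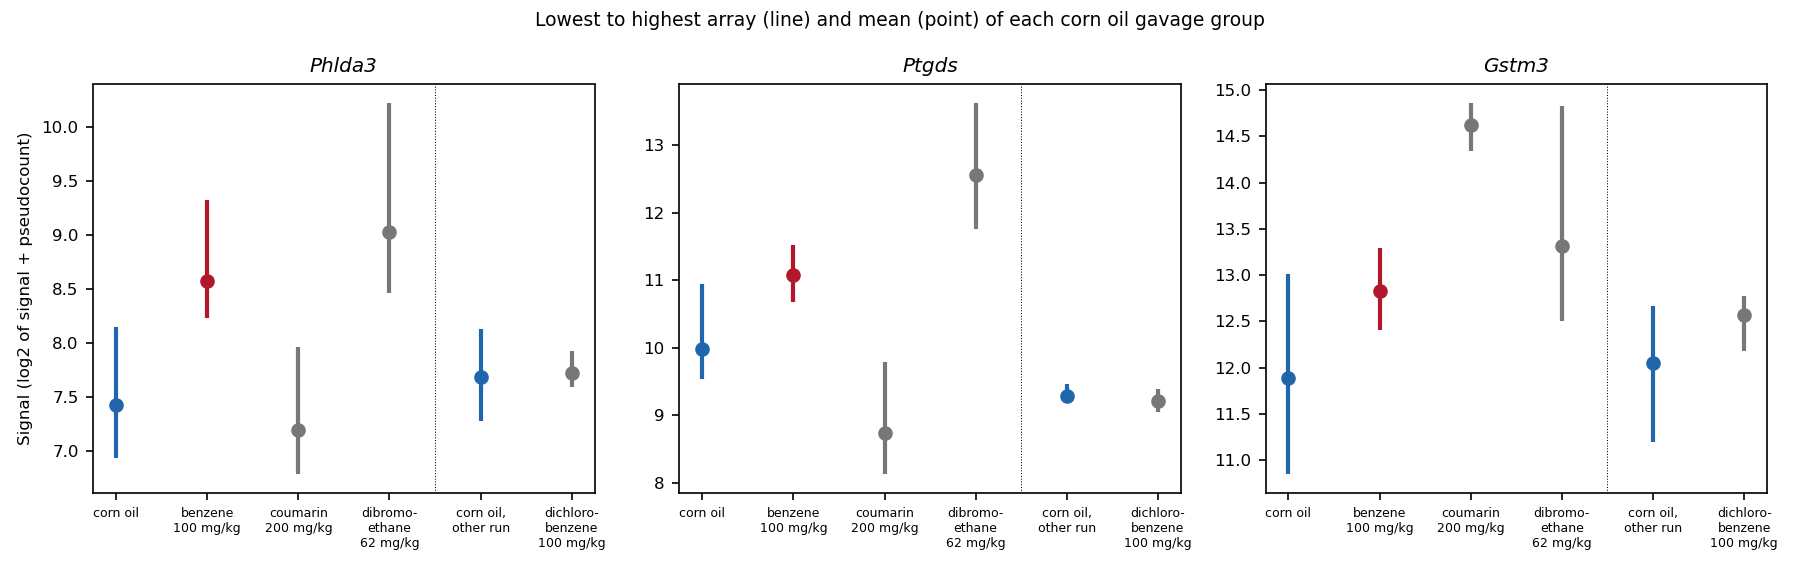
Levels (y axis, log2 of signal plus pseudocount) of Phlda3, Ptgds and Gstm3 in the corn oil gavage groups (x axis), with lines from the lowest to the highest array and points at the mean; each group has 4 arrays except the corn oil controls of the other run, which have 5. The dotted line separates runs. Benzene lies above its corn oil controls for Phlda3, overlaps them for Ptgds and Gstm3, and lies above coumarin for Phlda3 and Ptgds.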

How the data were processed

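Liver RNA of 242 mice had been hybridised, biotin-labelled, to 1-colour Affymetrix Mouse430_2 arrays. The authors deposited 1 linear signal intensity per probe set and array; the submitters' processing notes list GCOS 1.0, and how probes were summarised is not given in the sources used here. Depth does not apply to arrays, and the 4 arrays per group limit the precision. On 240 arrays the 2% trimmed mean of the signal was 500; the other 2 arrays, outside these comparisons, were rescaled to it. From the deposited intensity, log2(signal + 17.3) was computed, 17.3 being the 20th percentile of the signal, as a median across arrays. Of 45101 probe sets, 64 controls were left out; 34945 of the rest had exactly 1 gene symbol and 10092 had none or several and were not named. No filter on dim probe sets was used.

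limma 3.58.1 (R 4.3.3) was fitted to the 54 arrays of both run codes with 1 mean per group and the run code as a block (44.2 degrees of freedom), followed by eBayes; tests were two-sided and adjusted by Benjamini-Hochberg over 45037 probe sets. The 1,4-dichlorobenzene contrast used those arrays and the arrays of run code RSTLRI000_2. A p-value weighs a difference against the spread between mice within groups, pooled over all groups fitted and moderated by eBayes. The fit was tested on simulated data with independent normal noise of the same spread in all groups. The benzene arrays spread more widely than most groups, so that test does not check the intervals under unequal spread.

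The arrays, gene lists (634 genes in 34 lists, 67 not measured) and tests were chosen with earlier results of these data known. The 67 leave out Trf, which was matched by name to Trh. Genes were named by rule: any called gene; members of the 3 benzene metabolism lists; 14 metabolism and damage genes whatever their values (Ugt1a6a had no probe set of its own); the 10 higher and 10 lower with the lowest p among genes above the median gene; up to 2 members of every other list; the 8 higher and 8 lower with the largest difference among genes without overlap; and 5 called genes per direction in the other contrasts. Members named beside a count that fall outside it were chosen after their values were seen. Promoters came from the RefSeq table of GRCm38.p6. Alternatives varied the scaling, pseudocount, dim filter, block, probe sets, a Gapdh covariate, the arrays fitted, the control set and single arrays; leaving out benzene replicates 1 and 2 together was chosen after seeing the data.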

Additional observations from a re-analysis of the deposited data

Results flagged for a closer look

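A single array lay far from the other 3 of its group in 5 of the 136 groups of arrays tested for it, each by Dixon's criterion, which chance meets in about 1 group in 20. Mir1931 was lowest in benzene replicate 1, at 6.636 against 7.392 to 7.474 in the others. Birc5 was highest in benzene replicate 3, at 7.909 against 6.315 to 6.372. Among the corn oil controls, replicate 4 was lowest for Vpreb3 (6.682) and for Lcn2 (7.386), and replicate 3 was highest for Zdhhc15 (5.784).

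The direct contrast of coumarin with benzene, both given in corn oil but at different doses, passed the adjusted limma test for the following genes. Higher with coumarin on the log2 scale were Cyp4a12a by 4.813 (adjusted p = 2.43e-05), Acox2 by 0.9118 (0.000376), Ly6f by 3.021 (0.000617), Gsta4 by 1.422 (0.000644) and Gstm3 by 2.346 (0.00382). Lower with coumarin were Ccnd1, with a difference of -1.944 (5.3e-05), Cyp3a44 with -3.18 (8.97e-05), Ptgds with -2.231 (0.000196), Fam25c with -1.555 and Syvn1 with -1.291 (both 0.0137). Between 1,2-dibromoethane and benzene the difference was -2.452 for Cyp3a44 (limma, adjusted p = 0.0295) and -1.638 for Rufy3 (0.0231).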

How the results depend on the processing

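The count of probe sets called for benzene was 0 in 17 of 20 alternatives. It was 1 with the pseudocount 4 times lower and 1 without the run code block, both times 1443270_at, and 0 to 3 when single arrays were left out (3 without control replicate 3). Genes with an interval within 2-fold numbered 11164 as reported, 16975 with the pseudocount 4 times higher and 8866 with it 4 times lower. They numbered 10192 with only the benzene and CCO2 arrays fitted. For coumarin against benzene the 52 calls became 84 with dim probe sets left out, 80 with the pseudocount 4 times higher, 0 with only those groups fitted, 9 without benzene replicates 1 and 2, and 20 to 48 with single arrays left out. For 1,2-dibromoethane against benzene the 3 calls became 6, 7, 0, 0 and 0 to 4 under the same settings. For the 1,4-dichlorobenzene contrast single arrays gave 0 to 1.

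Differences that changed sign were the following. Without benzene replicates 1 and 2 they were 0.25 (Sult1a1), 0.18 (Mdm2), 0.10 (Ehhadh), 0.30 (Hao2), -0.84 (Prtn3), -0.79 (Lcn2), -1.84 (Saa2), -0.59 (Saa3), 0.032 (Acot1), -0.071 (Socs3), 0.14 (Aldh3a2) and 0.13 (Sult1c2). Nqo1 was 0.013 with quantile normalization, 0.15 with CCO2 and CCO3 as controls, 0.23 with WCO1 added and 0.045 within RSTLRI601_1, and Gstt1 was 0.0016 with CCO2 and CCO3. Cyp2b10 was -0.011 without the block and -0.049 with the Gapdh covariate. With single arrays left out, Nqo1 ran from -0.081 to 0.056, Sult1a1 from -0.40 to 0.059, Cyp2b10 from -0.13 to 0.24 and Cyp1a1 from -0.28 to 0.0049. The causes were not tested. No paired analysis was possible because the labels give no replicate numbers and those used here are in accession order. The number of arrays and the low signal of dim genes limit precision.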
